A study of Homo sapiens with 12 samples.

Results

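The ZFP36 family consists here of 3 genes, ZFP36, ZFP36L1 and ZFP36L2, among 19775 genes named by a single symbol on the array. Every probe set annotated to 1 of these symbols was taken, which gave 9 of 41091 such probe sets: 1 for ZFP36, 4 for ZFP36L1 and 4 for ZFP36L2. The arrays measured H929, an established human multiple myeloma cell line, in 4 groups of 3. The first group was infected with a hairpin against BCL9 (shBCL9) and its control with a hairpin against GFP (shGFP), and in both the GFP-positive cells were collected by flow cytometry. The third group received the miR-30 family by transfection (hsa-miR-30a/b/c/d/e, called miR-30 here), and its control received cel-miR-67, a worm microRNA. All groups are the same line, the labels name 1 hairpin per infected group, and the 2 arms differ in delivery and sorting. The family was chosen by the level of ZFP36L1, known from earlier results of these arrays to be far lower in shBCL9 cells than in shGFP cells. The differences between shBCL9 and shGFP cells are therefore given for the 3 genes as a description without a test. The miR-30 arm did not choose them and was tested.

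ZFP36 family proteins carry tandem CCCH zinc fingers that bind AU-rich elements in the 3′ untranslated regions of mRNAs, many of them short-lived transcripts of cytokines, transcription factors and cell cycle regulators. Once bound, they recruit the CCR4-NOT deadenylase and the decapping machinery, and the mRNA is degraded. Their activity is held down by phosphorylation through the p38 and MK2 kinases and by binding of 14-3-3 proteins, and is restored by phosphatase 2A. ZFP36L1 and ZFP36L2 act in the quiescence and development of B lineage cells in mice, and ZFP36 is an immediate early gene in many cell types.

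The microRNAs of the transfected group share their seed, the bases by which a microRNA pairs with its targets, so their mature sequences are shown for 3 of them, from RefSeq on GRCh38.p14, with the seed (bases 2 to 8) in capitals.
hsa-miR-30a-5p: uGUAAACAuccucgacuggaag
hsa-miR-30c-5p: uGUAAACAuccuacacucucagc
hsa-miR-30e-5p: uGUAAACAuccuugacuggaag
The sequences differ only after the seed, and hsa-miR-30c-5p is 23 bases long against 22 bases for the others.

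ZFP36 lies on chromosome 19 (GRCh38.p14, 39406847 to 39409407), ZFP36L1 on chromosome 14 (68787655 to 68796243) and ZFP36L2 on chromosome 2 (43222402 to 43226606). The sequence just before a transcription start is shown for ZFP36 and for 1 of 2 annotated ZFP36L1 starts. The reference sequences held no promoter window for ZFP36L2. Each RefSeq stretch is the 250 bases upstream of the start, and capitals mark a motif match.
ZFP36, chr19:39406597-39406846, plus strand: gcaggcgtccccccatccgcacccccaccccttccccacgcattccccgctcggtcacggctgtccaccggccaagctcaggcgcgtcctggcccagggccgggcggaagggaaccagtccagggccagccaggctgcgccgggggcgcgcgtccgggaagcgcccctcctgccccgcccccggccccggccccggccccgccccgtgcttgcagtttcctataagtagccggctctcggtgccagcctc
ZFP36L1, chr14:68793417-68793666, minus strand: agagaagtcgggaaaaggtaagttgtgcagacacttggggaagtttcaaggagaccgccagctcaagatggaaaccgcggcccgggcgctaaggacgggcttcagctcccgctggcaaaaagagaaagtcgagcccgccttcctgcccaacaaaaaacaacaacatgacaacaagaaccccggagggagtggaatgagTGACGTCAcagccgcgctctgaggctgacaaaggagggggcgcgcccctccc
3 motifs were searched on both strands of the 300-base windows that run to 50 bases past the start: CTTTGA, the core bound by TCF/LEF factors, TGACGTCA, the cAMP response element, and TGANTCA, the AP-1 element. The only match in these windows was TGACGTCA, which begins at position -52 relative to the ZFP36L1 start shown. The window of the other annotated ZFP36L1 start, searched in the same way, held none of the 3 motifs. Of 35116 promoter windows in the table, 12.9% held CTTTGA, 1.85% held TGACGTCA and 7.71% held TGANTCA. A match is a description of the letters, and binding was not measured.

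The values are log2 intensities normalized by RMA, per the submitters' notes, so a difference of 1 is a 2-fold difference in intensity. Levels are compared within a probe set and never between probe sets. The test covered the 34381 probe sets that exceeded a filter level in at least 3 arrays. That level was the 40th percentile of each array, or 4.86 to 4.95. Over all probe sets the correlation between 2 arrays of the same group was 0.996 to 0.997, that between an shBCL9 and an shGFP array 0.980 to 0.985, and that between a miR-30 and a cel-miR-67 array 0.995 to 0.996. The target of the hairpin, BCL9, measured 7.73 ± 0.12 in shBCL9 cells and 7.88 ± 0.011 in shGFP cells (SD, n = 3 each), a difference of -0.15 that did not pass the threshold of 0.05 (limma adjusted p = 0.0874). Control probe sets also moved with the hairpin: the 18S rRNA level was 13.23 in shBCL9 arrays and 12.38 in shGFP arrays, and the 3′ over 5′ difference of ACTB, a sign of RNA integrity, was 1.67 in shBCL9 arrays and 1.30 in shGFP arrays. The same difference of GAPDH was 0.131 in shBCL9 arrays and 0.136 in shGFP arrays. The poly-A spikes averaged 6.48 in shBCL9 arrays and 7.15 in shGFP arrays, and the hybridisation spikes 11.23 in shBCL9 arrays and 11.45 in shGFP arrays. Whether these take part in the differences below was not tested beyond the covariate fits given with them. The ACTB difference ran from 1.59 to 1.75 in shBCL9 arrays and from 1.17 to 1.36 in shGFP arrays. The infected groups thus did not overlap in it or in 18S level. In that arm the covariate fits cannot tell either measure and the hairpin apart. The 12 plasma cell and myeloma markers, among them SDC1, PRDM1 and IRF4, lay above the filter level in every array of all 4 groups. Above it in all arrays were also 5 of 6 B cell markers, 3 of 7 T and NK cell markers, 2 of 6 myeloid markers, 3 of 4 erythroid markers and 5 of 9 stromal and epithelial markers. These were the same genes in every group, and MS4A1, CD3G, CD14, KLF1 and EPCAM stayed under the level in all 12 arrays. The summed B cell marker level ran from 9.30 to 9.32 in shBCL9 arrays and from 9.42 to 9.57 in shGFP arrays, while the median B cell marker was at 5.94 in shBCL9 cells and 5.74 in shGFP cells. The summed erythroid level was 8.39 to 8.41 in shBCL9 arrays and 8.23 to 8.38 in shGFP arrays. The summed level of the stromal and epithelial markers was 13.80 to 13.85 in shBCL9 arrays and 13.86 to 13.89 in shGFP arrays. It lay close to the highest marker of that list, at 13.67 in shBCL9 cells and 13.71 in shGFP cells. The median marker of the list was at 6.26 in shBCL9 cells and 6.08 in shGFP cells. Overlapping sums were found for T and NK cell markers, at 7.77 to 7.91 in shBCL9 arrays and 7.88 to 7.97 in shGFP arrays, and for myeloid markers, at 7.52 to 7.59 in shBCL9 arrays and 7.47 to 7.63 in shGFP arrays. The part of other cell types in the results was not tested.

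ZFP36L1, the family member with the widest range, was lower in shBCL9 cells than in shGFP cells by the 1 of its 4 probe sets that passed the filter. This probe set, 211962_s_at, measured 3.12, 3.35 and 3.62 in the shBCL9 arrays, against 6.95, 7.06 and 7.34 in the shGFP arrays. All 3 shBCL9 arrays lay under the filter level and all 3 shGFP arrays far above it. The difference was -3.75 (SE 0.12), or 13.5-fold lower in shBCL9 cells, where the shBCL9 arrays read below the filter level. With levels under it set to it, the difference was -2.17, or 4.49-fold. In bulk RNA, fewer cells with the transcript and less transcript per cell cannot be told apart.

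Transfection gave levels of 7.92, 7.95 and 7.87 in miR-30 cells by the same probe set, against 7.89, 8.0 and 7.82 in cel-miR-67 cells. The arrays overlapped, and the difference of 0.01 had a 95% interval of -0.25 to 0.27 (limma adjusted p = 0.984, exact permutation p = 1). The shGFP and cel-miR-67 controls did not overlap, with ZFP36L1 lower by 0.79 in shGFP cells. In order of level, miR-30 and cel-miR-67 cells were highest and did not differ beyond their spread, shGFP cells followed, and shBCL9 cells were lowest.

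The other 3 ZFP36L1 probe sets stayed under the filter level in all 12 arrays. For 211965_at the mean was 3.40 ± 0.081 in shBCL9 cells and 3.77 ± 0.074 in shGFP cells (SD, n = 3 each), and the arrays did not overlap. For 213277_at it was 3.65 ± 0.054 in shBCL9 cells and 3.70 ± 0.098 in shGFP cells, and for 213284_at it was 4.67 ± 0.036 in shBCL9 cells and 4.54 ± 0.10 in shGFP cells. The last 2 overlapped between the groups, so the ZFP36L1 difference rests on 1 probe set, and the mean difference over all 4 was -1.01. In the transfected arm the same 3 probe sets differed by -0.03, 0.04 and -0.03, all with overlapping arrays.

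**Figure D1:**
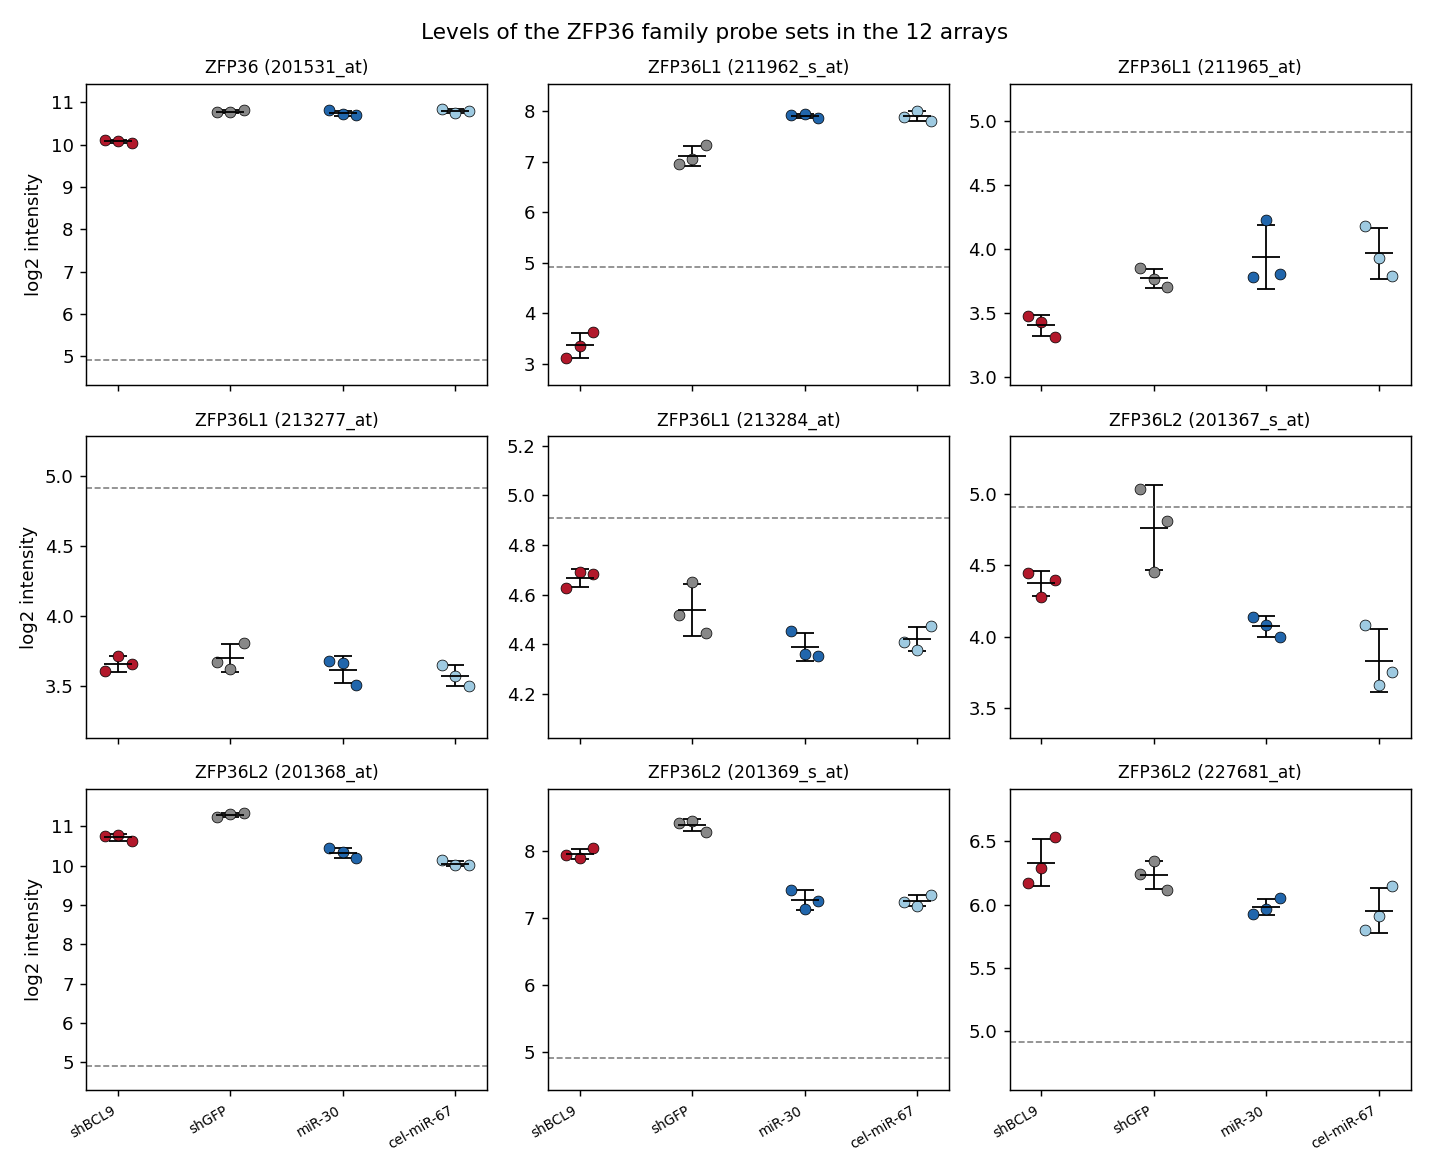
Log2 intensity (vertical axis, a separate range in each panel) of the 9 ZFP36 family probe sets in each of the 12 arrays, with groups along the horizontal axis. Points are arrays, black lines are the mean ± SD of 3 arrays, and the dashed line is the mean filter level of the arrays. The ZFP36L1 probe set 211962_s_at is the one that is above the line in 3 groups and below it in shBCL9 cells.

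ZFP36, also called tristetraprolin, was represented by 1 probe set and lay far above the filter level in all groups. It measured 10.10, 10.08 and 10.04 in shBCL9 cells, against 10.76, 10.77 and 10.81 in shGFP cells. The arrays did not overlap, and shBCL9 cells were lower by a log2 difference of -0.70 (SE 0.05), or 1.63-fold.

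After transfection ZFP36 measured 10.81, 10.72 and 10.70 in miR-30 cells, against 10.84, 10.74 and 10.79 in cel-miR-67 cells. These overlapped, with a difference of -0.05 and a 95% interval of -0.17 to 0.07 (limma adjusted p = 0.700, exact permutation p = 0.3). The shGFP, miR-30 and cel-miR-67 cells formed a run of overlapping levels between means of 10.74 and 10.79, and shBCL9 cells stood apart below it.

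ZFP36L2 had 3 probe sets that passed the filter. Its brightest probe set, 201368_at, measured 10.76, 10.77 and 10.62 in shBCL9 cells, against 11.22, 11.30 and 11.33 in shGFP cells. The shBCL9 arrays were all below the shGFP arrays, with a difference of -0.57 (SE 0.07), or 1.49-fold lower. After transfection it measured 10.44, 10.34 and 10.19 in miR-30 cells, against 10.13, 10.01 and 10.00 in cel-miR-67 cells. Here the miR-30 arrays were all higher, by 0.28 with a 95% interval of 0.12 to 0.44. This was not called (limma adjusted p = 0.0681), and the exact permutation p was 0.1, the smallest that 3 against 3 arrays allow. It passed the threshold in 5 of 14 alternative settings, with adjusted p between 0.00515 and 0.205, among them the one without miR-30 replicate 3 (adjusted p = 0.0412).

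The remaining ZFP36L2 probe sets did not all share these differences. For 201369_s_at the levels were 7.94, 7.90 and 8.04 in shBCL9 cells, against 8.42, 8.45 and 8.29 in shGFP cells, a difference of -0.43 without overlap. The same probe set differed by 0.01 in the transfected arm (limma adjusted p = 0.958), with overlapping arrays. The probe set 227681_at measured 6.17, 6.29 and 6.54 in shBCL9 cells, against 6.24, 6.34 and 6.12 in shGFP cells, which overlapped. It differed by 0.10 in the infected arm and by 0.03 in the transfected arm (limma adjusted p = 0.920). The fourth, 201367_s_at, did not pass the filter, and its differences were -0.39 in the infected arm and 0.24 in the transfected arm. Over all 4 probe sets the mean difference was -0.32 in the infected arm and 0.14 in the transfected arm.

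The 2 controls also differed in ZFP36L2: 201368_at was higher by 1.24 and 201369_s_at by 1.13 in shGFP cells than in cel-miR-67 cells. The third in the test, 227681_at, was higher by 0.28 in shGFP cells, with overlapping arrays. The gaps of the first 2 exceed both within-arm differences, and the shBCL9 arrays still lay above the miR-30 arrays in both. Delivery, sorting and any difference in handling between the arms cannot be told apart in this comparison. ZFP36 showed no such gap, with shGFP and cel-miR-67 means 0.01 apart.

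Of the 5 family probe sets that passed the filter, 4 had all shBCL9 arrays below all shGFP arrays, where 25.7% of all 34381 tested probe sets did. This comparison chose the family, so nothing is read from the count. In the transfected arm 0 of the 5 were called by limma, where 2.67% of all tested probe sets were called. At an unadjusted limma p under 0.05, 1 of the 5 was higher and 0 were lower. Of the 14725 genes tested by 1 probe set each, 7.7% were higher and 13.3% lower at that threshold. The 3 genes thus had different profiles over the 4 groups. ZFP36L1 and ZFP36 were lowest in shBCL9 cells, and ZFP36 had overlapping levels in the other groups. By all 3 tested probe sets the ZFP36L2 means were higher in both infected groups than in both transfected groups. Arrays of the 2 arms did not overlap in 2 of these 3 probe sets, and did in 227681_at.

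**Figure D2:**
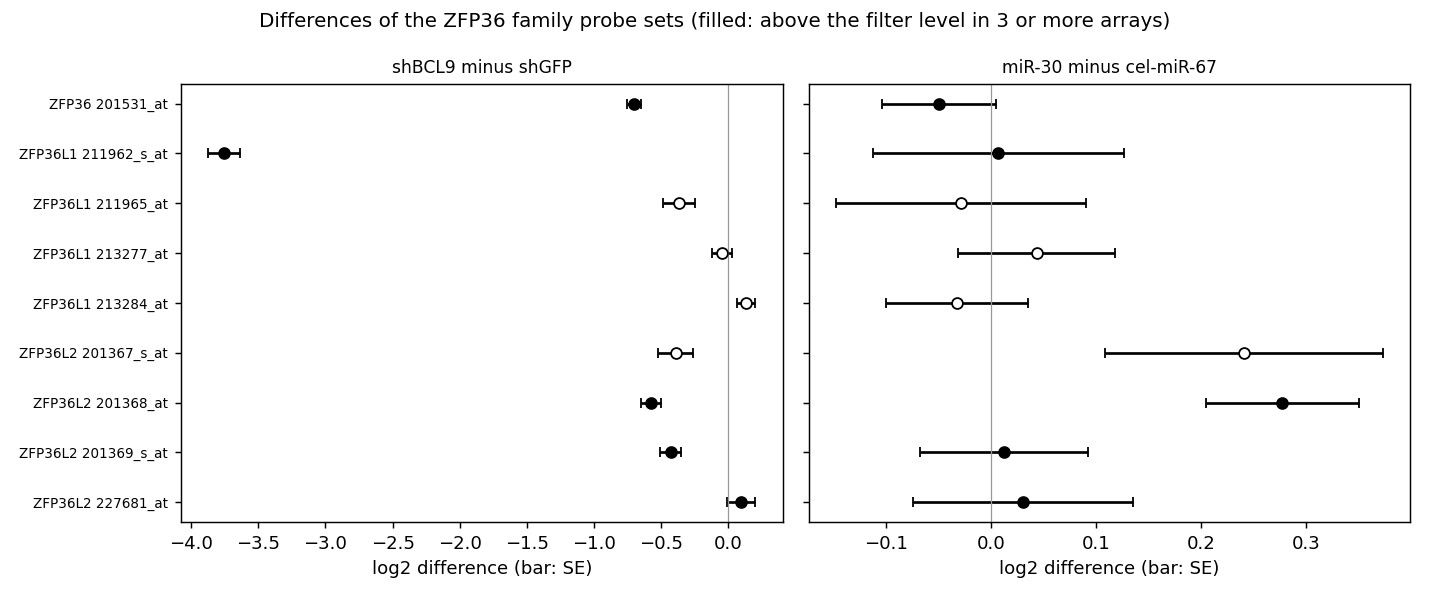
Log2 difference (horizontal axis, on a different range in each panel) of each ZFP36 family probe set, shBCL9 minus shGFP at the left and miR-30 minus cel-miR-67 at the right. Points are differences of 3 arrays against 3 and bars are their SE, and open points did not pass the filter. The ZFP36L1 value of -3.75 stands far from the others in the infected arm, and all transfected values lie between -0.05 and 0.28.

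The genes most like each family member were named as a description, by the root mean square difference over the 12 arrays after centring each gene on its own mean. The nearest to ZFP36 were GALNT10, CCDC69, ANKRD10, PRDM4 and WWOX, at 0.054 to 0.065, where the median gene was at 0.384. Each of these was lower in shBCL9 cells, by differences between -0.59 for WWOX and -0.70 for PRDM4. The nearest to ZFP36L1 were CCND2, a D-type cyclin, BHLHE41, a circadian repressor, H2AC6, a histone H2A gene, BEX4 and TRBC1, a T cell receptor constant gene. They were less close, at 0.444 for CCND2 to 0.722 for TRBC1, where the median gene was at 1.92. CCND2 averaged 6.10 in shBCL9 cells and 10.70 in shGFP cells, a difference of -4.60, and 0.02 separated the transfected groups. The nearest to ZFP36L2 were CNKSR2, a signalling scaffold, at 0.055, and RGL1, CEP128, FAM216A and SLC9B2, at 0.10 to 0.11, where the median gene was at 0.480. CNKSR2 differed by -0.65 in the infected arm and by 0.21 in the transfected arm. The arrays of a group share treatment and handling, so these distances rest mainly on 4 group means. Because the genes were chosen for closeness over these same arrays, differences like those of the members follow from the choice.

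**Figure D3:**
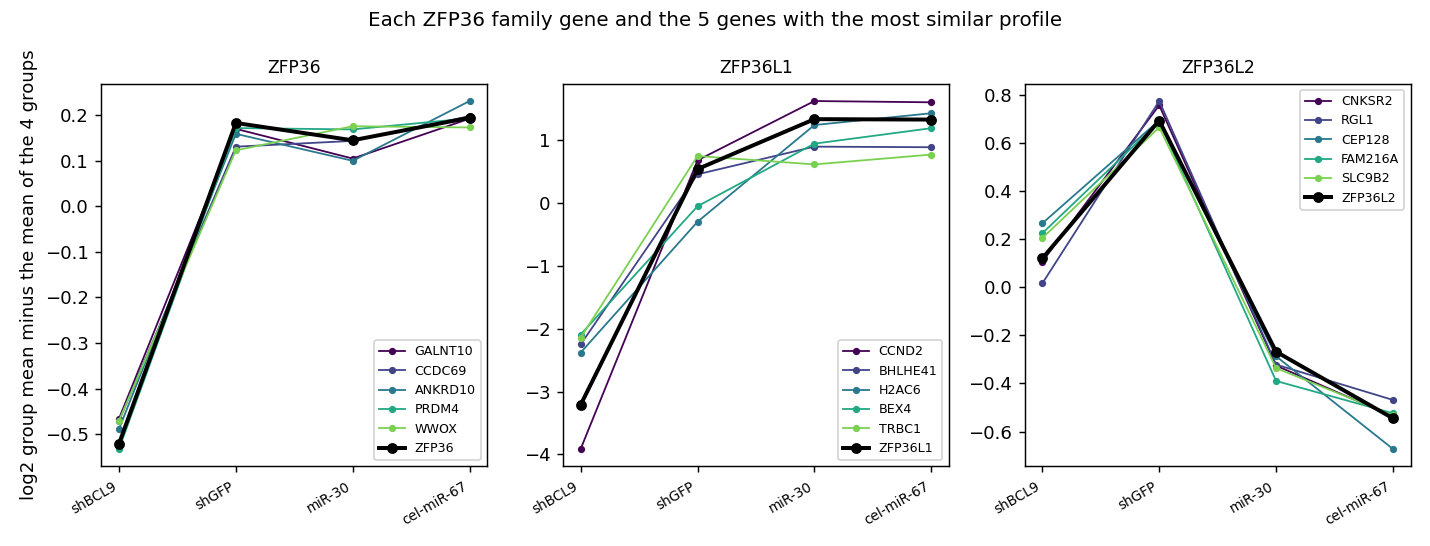
Group mean of each gene minus the mean of its 4 group means (vertical axis, log2, a separate range in each panel) for ZFP36, ZFP36L1 and ZFP36L2 in black and the 5 genes with the smallest root mean square difference in colour. Groups run along the horizontal axis and have no order beyond treated before control, so the lines only guide the eye.

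Reported target mRNAs of the family moved in both directions when BCL9 hairpin and GFP hairpin cells were compared. Of 42 listed, 38 were on the array under a single symbol and 29 passed the filter. By 1 probe set per gene, 4 were higher in shBCL9 cells and 10 were lower, where 18.7% of all 14725 genes tested were higher and 22.9% were lower. The median difference of the list was 0.05 and that of all genes 0.03. TNF, IL6, IL2, IL3, CXCL8, CXCL1, CXCL2, CCL2 and PTGS2, the classical inflammatory targets, did not pass the filter. With the 18S level of each array as a covariate, 0 of 114 list genes were called in either comparison, and 11 in the infected arm and 20 in the transfected arm had an unadjusted limma p under 0.05. Over all 14725 genes that fit called 11 in the infected arm and 56 in the transfected arm, with 1320 in the infected arm and 2012 in the transfected arm at an unadjusted p under 0.05. The standard error in the infected arm was 7.65 times as large at the median.

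CCND1, the cyclin D1 gene, measured 8.88, 8.97 and 8.99 in shBCL9 cells, against 7.76, 7.93 and 7.84 in shGFP cells. It rose by 1.10 (SE 0.06, limma adjusted p = 5.65e-08), or 2.14-fold. HIF1A, the hypoxia-inducible factor, rose by 0.61, and CDKN1A, the cyclin-dependent kinase inhibitor p21, by 0.61. BCL2, the survival factor, rose by 0.38 (limma adjusted p = 0.0105), with 2 of its 3 probe sets of the same sign, and its fitted difference was -0.20 with the ACTB covariate.

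Among the reported targets that fell were the transcription factors FOS, KLF2 and JUN. FOS measured 4.65, 4.85 and 5.04 in shBCL9 cells, against 7.34, 7.45 and 7.44 in shGFP cells, and fell by 2.56 (limma adjusted p = 5.53e-10). The shBCL9 mean lay under the filter level, and with levels under it set to it the difference was -2.43. KLF2, a quiescence-associated factor of lymphocytes, measured 8.68, 8.71 and 8.62 in shBCL9 cells, against 10.09, 10.13 and 10.04 in shGFP cells, and fell by 1.42. KLF2 lost its call when only plain probe sets were used, those whose names lack the _s, _x or _a mark of possible matches to several transcripts, with a difference of -0.19 (limma adjusted p = 0.145). JUN fell by 1.17, with 2 of 3 probe sets of the same sign.

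IL10, a cytokine, passed the filter through the shGFP arrays alone, so it had to differ between the infected groups, and without it 9 of 28 targets were lower. It measured 3.99, 3.90 and 3.67 in shBCL9 cells, against 6.32, 6.08 and 6.46 in shGFP cells. IL10 ran from 3.40 to 3.85 in miR-30 cells and from 3.97 to 4.22 in cel-miR-67 cells. The difference of -2.43 in shBCL9 cells was -1.33 with levels under the filter level set to it. CCNE2, the cyclin E2 gene, fell by 0.55, and MCL1, a survival factor of plasma cells, by 0.43 with all 6 probe sets of the same sign.

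In the transfected arm 3 of the 29 targets were higher in miR-30 cells and 3 were lower, where 2.35% of all genes were higher and 2.63% were lower. KLF2 measured 9.23, 9.12 and 9.13 in miR-30 cells, against 8.89, 8.83 and 8.81 in cel-miR-67 cells, and rose by 0.32 (limma adjusted p = 0.00438). JUN rose by 0.38 and CCNE2 by 0.41. CDKN1A fell by 0.29, CCND1 by 0.28 and CD274, the PD-L1 gene, by 0.32, with 1 of 2 CD274 probe sets of that sign. All of these are under 1.5-fold. Without miR-30 replicate 2 the calls of JUN, CCNE2, CDKN1A, CCND1 and CD274 ended (limma adjusted p = 0.0563 for CDKN1A to 0.106 for CCND1), and each of the other 5 arrays ended 1 or more of these when left out, with up to 0.128 for CD274 without cel-miR-67 replicate 2. KLF2 kept its call without any 1 of the 6 arrays, but not with plain probe sets (0.029, limma adjusted p = 0.912) or as the mean of its probe sets (0.17, limma adjusted p = 0.155). JUN and CD274 also lost theirs as the mean of their probe sets.

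Judged by brightest probe sets, 7 genes of the 6 lists were called in both arms, and 5 of them had opposite signs: KLF2, JUN and CCNE2 fell in shBCL9 cells and rose in miR-30 cells, and CCND1 and CDKN1A rose in shBCL9 cells and fell in miR-30 cells. Over all genes 407 were called in both arms and 133 had opposite signs. CNOT4 fell in both arms, with 2 of 4 probe sets of that sign in the infected arm and all 4 in the transfected arm. HNRNPD rose in both by its brightest probe set. Its difference in the infected arm was -0.53 (limma adjusted p = 0.000209) with plain probe sets. As the mean of all its probe sets, those under the filter included, it was 0.11 (limma adjusted p = 0.140). The arms do not share arrays.

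**Figure D4:**
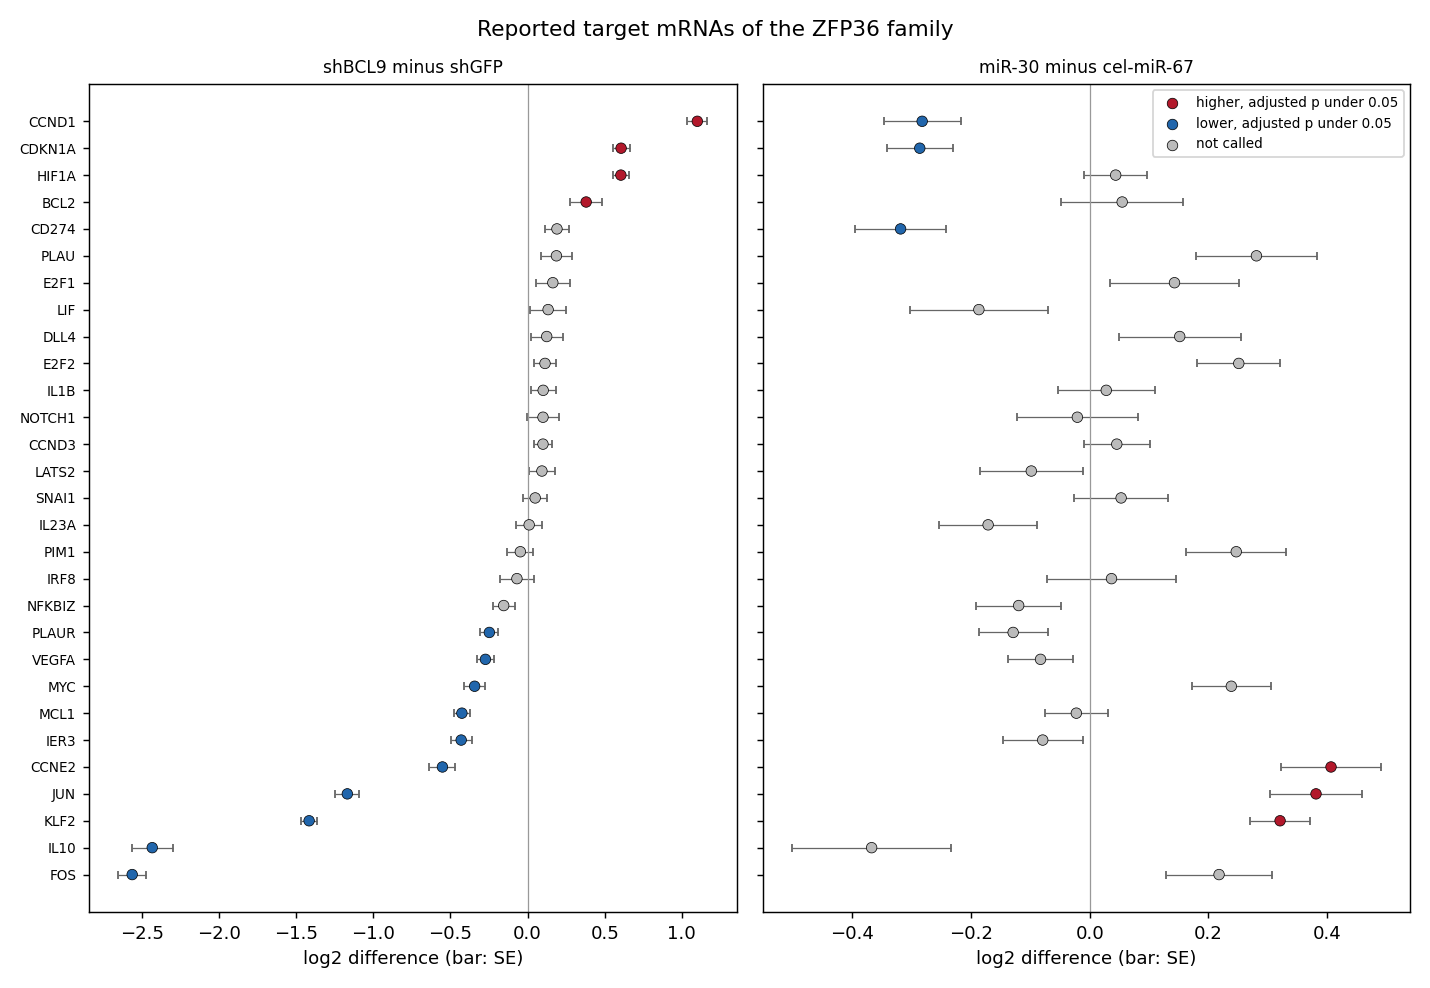
Log2 difference (horizontal axis, on a different range in each panel) of the 29 reported ZFP36 family target genes that passed the filter, shBCL9 minus shGFP at the left and miR-30 minus cel-miR-67 at the right, in the order of the left panel. Points are differences of 3 arrays against 3, bars are SE, and colour marks genes called higher or lower by limma. FOS and IL10, at the foot, are the lowest in the left panel, and CCND1 is the highest.

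The CCR4-NOT deadenylase that the family recruits, with its BTG and TOB adaptors, had 14 genes tested. In shBCL9 cells 6 fell and 0 rose by limma, where 22.9% of all genes were lower and 18.7% higher. At an unadjusted p under 0.05, 7 were lower and 0 higher, where 26.0% of all genes were lower and 24.1% higher. The median difference was -0.10. TOB1, an adaptor that links RNA-binding proteins to the deadenylase, measured 9.03, 9.14 and 8.94 in shBCL9 cells, against 9.39, 9.53 and 9.53 in shGFP cells, and fell by 0.45 (limma adjusted p = 0.000164). Its relative TOB2 fell by 0.60 by its brightest probe set, where the mean of its 3 probe sets was -0.17. CNOT8, a catalytic subunit, fell by 0.37 with all 3 probe sets of 1 sign. CNOT3, a scaffold subunit, fell by 0.47, or by 0.29 as the mean of the 2 probe sets that passed the filter. With its probe sets under the filter included the mean fell by 0.13 (limma adjusted p = 0.137). In miR-30 cells CNOT4, a ubiquitin ligase that associates with the complex, fell by 0.21 (limma adjusted p = 0.0285, and 0.128 without cel-miR-67 replicate 2), and the other 13 were not called.

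Other deadenylation, decapping and 5′ decay factors counted 6 lower and 2 higher of 20 in shBCL9 cells, with a median difference of -0.04. Over all genes 22.9% were lower and 18.7% higher. PAN2, a deadenylase that acts before CCR4-NOT, measured 8.47, 8.43 and 8.40 in shBCL9 cells, against 9.15, 9.24 and 9.13 in shGFP cells, and fell by 0.74 (limma adjusted p = 9.57e-07). DDX6, a helicase of processing bodies, fell by 0.60. XRN1, the 5′ to 3′ exonuclease, fell by 0.40, and DCP1B, a decapping cofactor, fell by 0.33. LSM5 and LSM2, of the ring that binds deadenylated ends, rose by 0.25 and 0.15. Without shBCL9 replicate 3 both calls ended (limma adjusted p = 0.0966 for LSM5 and 0.130 for LSM2), as they did without shGFP replicate 1 or 2. LSM5 also lost its call without shBCL9 replicate 2, and LSM2 without shBCL9 replicate 1 or shGFP replicate 3. LSM3, of the same ring, fell by 0.21 in miR-30 cells (limma adjusted p = 0.0424, and 0.152 without miR-30 replicate 2) and was the only gene of the 20 called there.

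The RNA exosome and SKI complex, which degrade mRNA from its 3′ end, had 4 of 16 genes higher and 0 lower in shBCL9 cells. Over all genes 18.7% were called higher and 22.9% lower. At an unadjusted limma p under 0.05, 5 of the 16 were higher and 2 lower, where 24.1% of all genes were higher and 26.0% lower. The median difference of the 16 was 0.09. EXOSC4 measured 9.71, 9.65 and 9.56 in shBCL9 cells, against 9.39, 9.37 and 9.31 in shGFP cells, and rose by 0.28 (limma adjusted p = 0.00687). EXOSC10, a catalytic subunit, rose by 0.24, but its difference was 0.040 with plain probe sets (limma adjusted p = 0.759) and 0.14 as the mean of its probe sets (limma adjusted p = 0.0535). EXOSC1 rose by 0.23 and EXOSC8 by 0.16. All 4 lost their call with the ACTB covariate. That fit gave 0.41 for EXOSC4, 0.23 for EXOSC1, 0.11 for EXOSC10 and 0.056 for EXOSC8. Its standard errors were 2.27 times as large over all genes at the median, and it cannot tell the ACTB difference and the hairpin apart. EXOSC8 lost its call also without shGFP replicate 1 (limma adjusted p = 0.128) or any 1 of 4 other arrays, all but shGFP replicate 2. In miR-30 cells 0 of 16 were called, and 1 higher and 4 lower had an unadjusted limma p under 0.05. Over all genes 7.7% were higher and 13.3% lower at that threshold.

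Other proteins that bind AU-rich elements or stem-loops in mRNA counted 5 lower and 1 higher of 15 in shBCL9 cells, with a median difference of -0.07. Over all genes 22.9% were lower and 18.7% higher. ZC3H12B, a ribonuclease related to Regnase-1, fell by 0.64 to a mean of 4.88 in shBCL9 cells, under the filter level, against 5.52 in shGFP cells. RC3H2, a Roquin protein, fell by 0.27 and TIA1, a translational silencer, by 0.22, each with all 6 probe sets of 1 sign, and PUM2, a Pumilio protein, fell by 0.15. Without shGFP replicate 2 the calls of RC3H2 (limma adjusted p = 0.108) and PUM2 ended, and PUM2 was at 0.130 without shGFP replicate 3. RC3H2 also lost its call without shGFP replicate 1 or shBCL9 replicate 3, and PUM2 without any 1 of the shBCL9 arrays. The mean of the 2 PUM2 probe sets that passed the filter was -0.079. With those under the filter included the PUM2 mean was 0.011. HNRNPD, also called AUF1, rose by 0.28 by its brightest probe set, but 5 of 7 probe sets had that sign and plain probe sets alone gave -0.53 (limma adjusted p = 0.000209).

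After transfection HNRNPD measured 10.99, 10.93 and 10.90 in miR-30 cells, against 10.67, 10.62 and 10.48 in cel-miR-67 cells, and rose by 0.35 with all 7 probe sets of 1 sign (limma adjusted p = 0.00426). The mean of these 7 probe sets, which passed the filter, was 0.25. With its probe sets under the filter included the mean was 0.19 (limma adjusted p = 0.0707). ZC3HAV1, a zinc finger antiviral protein that binds RNA, measured 8.92, 8.82 and 8.66 in miR-30 cells, against 9.33, 9.29 and 9.25 in cel-miR-67 cells. It fell by 0.49 (limma adjusted p = 0.00145), or 1.41-fold, and kept its call without any 1 of the 6 arrays. These were the 2 genes of the 15 called in that arm.

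Of 20 genes whose products act on ZFP36 proteins, 9 were called higher and 3 lower in shBCL9 cells, where 18.7% of all genes were higher and 22.9% lower, and the median difference was 0.17. The mean of the probe sets of each gene gave 5 higher, and the ACTB covariate 4. MAPK13, the p38 delta kinase, measured 7.71, 7.72 and 7.80 in shBCL9 cells, against 6.09, 5.97 and 5.33 in shGFP cells. It rose by 1.94 (SE 0.14, limma adjusted p = 4.5e-07), or 3.85-fold, with both probe sets of the same sign. PPP2CA, a catalytic subunit of phosphatase 2A, rose by 0.48 and MAPKAPK3, a kinase downstream of p38, by 0.29. EIF4E2, a cap-binding protein, rose by 0.44 by its brightest probe set, but 2 of 4 probe sets had that sign and plain probe sets alone gave -0.47 (limma adjusted p = 9.15e-05).

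DUSP1, a phosphatase that switches off p38, measured 8.14, 8.14 and 8.10 in shBCL9 cells, against 8.99, 9.14 and 9.10 in shGFP cells, and fell by 0.95. The mean of its 3 probe sets was -0.24, and 2 of them had the same sign. YWHAB, a 14-3-3 protein, fell by 0.20. AKT1, a kinase that phosphorylates ZFP36L1, fell by 0.18 (limma adjusted p = 0.0359), and its call ended without shGFP replicate 2 (0.125) and without any other array but shGFP replicate 1. In miR-30 cells 0 of 20 were called, with 3 lower and 0 higher at an unadjusted limma p under 0.05. Over all genes 13.3% were lower and 7.7% higher at that threshold.

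**Figure D5:**
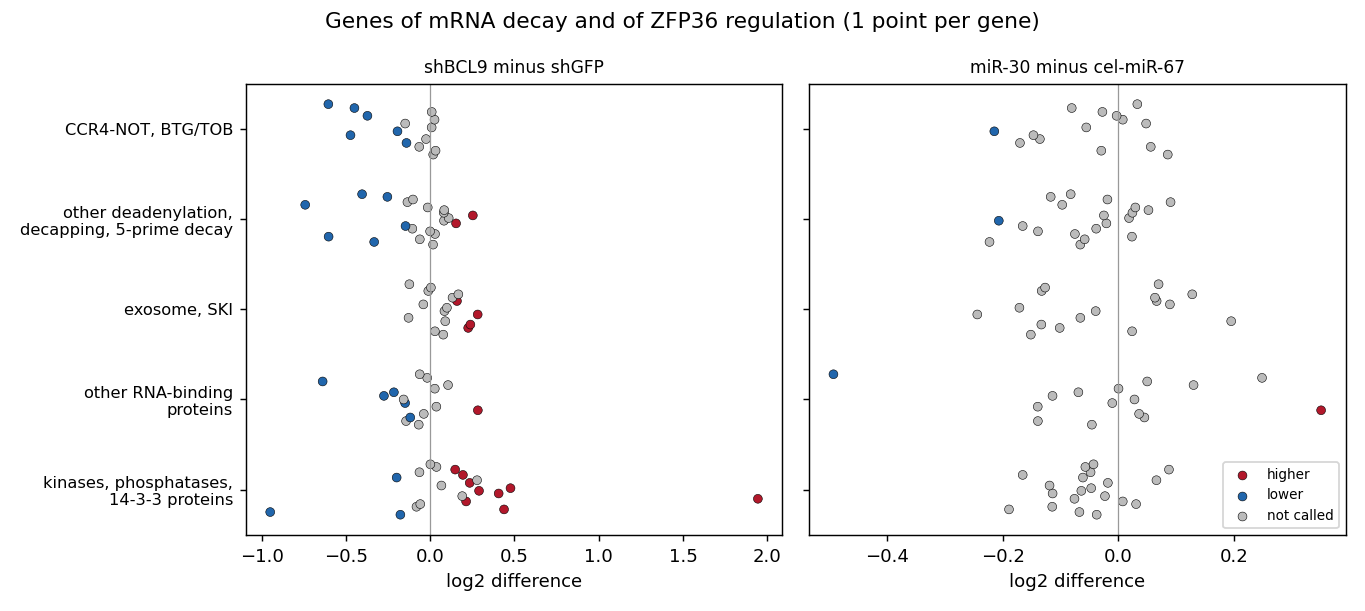
Log2 difference (horizontal axis, on a different range in each panel) of the genes of the 5 lists of mRNA decay factors, other RNA-binding proteins and regulators of the family, shBCL9 minus shGFP at the left and miR-30 minus cel-miR-67 at the right. Each point is 1 gene that passed the filter, and colour marks those called higher or lower by limma. MAPK13, at 1.94, is the point farthest to the right in the left panel.

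Over the 6 lists together, 114 of 135 genes were tested. In shBCL9 cells 20 were higher (17.5%) and 30 were lower (26.3%), close to the shares over all genes given above. In miR-30 cells 4 were higher (3.51%) and 6 were lower (5.26%), where 2.35% of all genes were higher and 2.63% lower. With the ACTB 3′ over 5′ difference as a covariate, 13 of the 36 genes named in the infected arm and 4 of the 10 named in the transfected arm lost their call. Of the 13, all but BCL2 kept their sign and 5 had a difference as large or larger, and all 4 in the transfected arm kept their sign. Whether RNA integrity or the 18S level takes part in these differences was not tested further. In the infected arm neither covariate can be told apart from the hairpin.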

How the data were processed

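The log2 intensities deposited by the authors for 12 arrays were made with RMA (affy), per the submitters' processing notes, and were used as deposited. The arrays hold 54675 probe sets. The 62 control probe sets stayed out of tests and served as quality measures, and probe sets with several symbols (1801) were not named. Groups came from the labels. Biotin-labelled RNA was hybridised, and the number of arrays limits the precision.

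limma 3.58.1 in R 4.3.3 fitted a mean per group over all 12 arrays, after a filter at the 40th percentile in at least 3 arrays, with Benjamini-Hochberg adjustment at 0.05. Members were tested by probe set (34381) and other genes by their brightest probe set (14725). Exact tests are two-sided permutations of 3 against 3 arrays. No label states whether the replicates were independent cultures. The p-values therefore reflect only array-to-array spread, part or all of which could be technical. Replicate numbers did not pair the arrays. Scripts were tested on simulated data. Figures used matplotlib 3.10.9.

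The members and lists were chosen with earlier results of these data known. Named were every member probe set, up to 4 called genes per direction and list by adjusted p (6 for the targets), and the 5 genes most like each member. Alternatives covered the filter, normalization, probe set choice, fit, covariates and left-out arrays. The alternative by the mean of the probe sets averaged every probe set of a gene, also those under the filter. Gene symbols came from the platform annotation, and sequences from RefSeq.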

Additional observations from a re-analysis of the deposited data

How the results depend on the processing

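Each group holds 3 arrays, no exact test of 3 against 3 can go below 0.1, and intensities near the filter level carry little information on size. The count of family probe sets called in the miR-30 arm, 0 in the reported fit, was 1 with the 60th percentile filter, with further quantile normalization, with array weights and with a trended robust fit, and 0 to 1 when 1 array was left out. In the infected arm ZFP36 was -0.73 with arrays centred on their medians. With 2 settings chosen after seeing the data, ZFP36L1 was -2.17 with low levels set to the filter level and -1.01 as the mean of its probe sets, and ZFP36L2 was -0.32 as that mean.

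Over the 6 lists in the miR-30 arm, 6 genes were lower in the reported fit, 3 with no filter, 3 with the 6 arrays of the arm alone, 10 with array weights, 12 with the trended robust fit, 2 with the ACTB covariate, 0 with the 18S covariate and 1 to 5 without 1 array. In the same arm 4 genes were higher in the reported fit, 2 with plain probe sets, 8 with the trended robust fit, 0 with the 18S covariate and 2 to 4 without 1 array. A fit with the replicate number as a replicate block gave 3 lower genes. Same-number correlations were 0.060, 0.10 and 0.069 in the infected arm and 0.18, 0.088 and 0.28 in the transfected arm, so the numbers were not taken as pairs. In the infected arm 20 genes were higher in the reported fit, 10 with plain probe sets, 9 with the ACTB covariate and 0 with the 18S covariate, while 30 were lower and 0 with the 18S covariate.

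Of the reported targets in the miR-30 arm, 3 were higher in the reported fit, 5 with the 60th percentile filter, 5 with the trended robust fit, 1 with plain probe sets, 0 with the 18S covariate and 1 to 3 without 1 array. There 3 were lower in the reported fit, 1 with the ACTB covariate, 0 with the 18S covariate and 0 to 3 without 1 array. In the infected arm 4 targets were higher in the reported fit, 7 with array weights and 0 with the 18S covariate, and 10 were lower, 4 with plain probe sets and 0 with the 18S covariate. The sign of PUM2 turned in the infected arm as the mean of all its probe sets, those under the filter included (0.011). There the signs of HNRNPD (-0.53) and EIF4E2 (-0.47, both with plain probe sets) and BCL2 (-0.20, ACTB covariate) also turned. With the 18S covariate so did BCL2 (-1.19), CNOT8 (0.092), LSM5 (-0.11), EXOSC1 (-0.049), EXOSC8 (-0.12) and HNRNPD (-0.069). The cause of these changes was not tested, except that the 18S covariate raised the median standard error 7.65 times in the infected arm and 1.59 times in the transfected arm. The infected groups did not overlap in 18S level or in the ACTB 3′ over 5′ difference. In that arm neither fit can tell its covariate and the hairpin apart.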
